A study of Homo sapiens with 6 samples.

Results

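A group of 10 genes of the NF-kappaB system was followed in H1, an established human embryonic stem cell line, in libraries labelled wild type and BRPF1 knockout. BRPF1 is a bromodomain scaffold of histone acetyltransferase complexes. The 10 genes are the 5 subunit genes NFKB1, NFKB2, RELA, RELB and REL, the inhibitor gene NFKBIA, its relative NFKBIZ, TNFAIP3, TNFAIP2 and BIRC3. The members were taken by gene name from the deposited count table, and all 10 were found among its 58395 gene rows. RNA was sequenced from 6 libraries. The WT group holds 2 libraries of wild-type cells, and the BRPF1 knockout genotype holds 2 libraries of a set called KO 1# and 2 of a set called KO 2#. What 1# and 2# stand for is not stated, nor whether each is 1 clone or whether replicates were separate cultures; without that, the p-values reflect library-to-library spread alone, which may be technical.

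NF-kappaB proteins are dimeric transcription factors. RELA, RELB and REL carry the activation domains, while NFKB1 and NFKB2 encode precursors whose shortened forms bind DNA as partners of the REL proteins. In resting cells inhibitors such as the product of NFKBIA hold the dimers in the cytoplasm, and the IKK kinases mark that inhibitor for destruction when a receptor is engaged. The freed dimers bind kappaB sites and switch on, among others, the genes that end the signal. The pathway is known to run at a low level in human embryonic stem cells and to rise as they differentiate.

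Because several of these genes are known targets of NF-kappaB, the matches near their RefSeq transcript starts are shown first. RefSeq start windows on GRCh38.p14 were available for 9 of the 10 members, 14 windows in all. The 250 bases before each start were searched on both strands for the kappaB consensus, a motif of 10 bases. It was found in 7 of the 9 members (77.8%) and in 11.8% of all 27305 genes with a window, and in 9 of 14 windows of the members against 9.96% of all 35116 windows. Several of these genes are textbook NF-kappaB targets and were chosen as feedback genes, so the share is a description and no test was made. No match lay in the windows of RELA and TNFAIP2, which says only that these letters are not there. Each stretch below is 30 bases on the strand of its gene, 5′ to 3′, with the matched bases in capitals; 11 capitals in a row are a pair of overlapping matches. The stretch of TNFAIP3 holds 2 separate matches, 67 and 55 bases before the RefSeq start of its window. RefSeq and GENCODE place some starts differently: by the GENCODE positions given further on, the stretches of TNFAIP3 and the first of NFKB2 lie wholly in exons of their genes, those of REL and the second of NFKB2 hold 26 and 11 exon bases, that of NFKB1 reaches the first exon by 1 base, and those of NFKBIZ, BIRC3 and NFKBIA hold 0. Another 4 stretches with a match, 2 of NFKB2 and 1 each of NFKBIZ and BIRC3, are not shown.
NFKB1, chr4:102501300-102501329: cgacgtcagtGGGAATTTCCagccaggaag
NFKB2, chr10:102394461-102394490: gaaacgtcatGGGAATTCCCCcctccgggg
NFKB2, chr10:102395674-102395703: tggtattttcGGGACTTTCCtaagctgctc
REL, chr2:60881517-60881546: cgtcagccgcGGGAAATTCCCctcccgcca
NFKBIZ, chr3:101827757-101827786: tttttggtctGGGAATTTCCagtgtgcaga
TNFAIP3, chr6:137867188-137867217: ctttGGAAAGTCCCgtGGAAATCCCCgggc
BIRC3, chr11:102317275-102317304: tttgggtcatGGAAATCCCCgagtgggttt
The NFKBIA window is shown whole, since this inhibitor is the best known feedback target of NF-kappaB. Its single match lies 81 bases upstream of the start, and the window runs on chr14:35404750-35404999, minus strand.
NFKBIA: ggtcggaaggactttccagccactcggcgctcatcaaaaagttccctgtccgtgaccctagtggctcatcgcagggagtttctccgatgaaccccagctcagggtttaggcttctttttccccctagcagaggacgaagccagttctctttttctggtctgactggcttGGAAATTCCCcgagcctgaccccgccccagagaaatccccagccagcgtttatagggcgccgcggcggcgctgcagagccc

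Several facts of the whole data set bear on every value below. Total counts per library ran from 33421785 to 38098779, and TMM scaling factors were 1.399 and 1.406 in WT and 0.8265 to 0.8668 in the knockout libraries. Levels are given as CPM, counts scaled to a common effective library size. BRPF1 itself had 28.3 and 23.1 CPM in the WT libraries, 32.2 and 27.9 in those of KO 1# and 25.4 and 23.6 in those of KO 2# (log2 fold change 0.08, adjusted p = 0.508, edgeR; -0.66, adjusted p = 7.07e-06, with library totals); gene counts do not show whether a transcript is edited, so the directions below rest on the labels. Pluripotency markers, which define embryonic stem cells, summed to 5528 to 5556 CPM for WT and 40.0 to 57.2 CPM for knockout: 10 of 10 were lower, and PRDM14 was at 0 in the knockout libraries. Fibroblast markers, led by COL1A1, COL1A2 and COL3A1, summed to 567 to 595 CPM for WT and 121600 to 133800 CPM for knockout: 10 of 10 were higher, and LUM and FAP were at 0 in WT. THY1, chosen after its value was seen, rose least, from 368 ± 7.70 to 411 ± 5.75 CPM (log2 fold change 0.16). The low-count filter was passed by 4 fibroblast markers through the knockout libraries alone and by 5 pluripotency markers through WT alone, so these had to differ. Of all tested genes 35.8% were called as higher and 41.4% as lower. Of the 12 leukocyte markers, 10 were under 1 CPM in every library, and the 12 summed to 3.80 to 3.93 CPM for WT, 2.64 to 2.70 for KO 1# and 4.09 to 5.26 for KO 2#. Of the 6 tested, 3 were higher and 3 lower. The filter was passed by 3 through the knockout libraries alone and by 3 through WT alone, so these too had to differ. Endothelial markers summed to 144 to 149 CPM in WT, 38.8 to 41.6 in KO 1# and 21.7 to 23.0 in KO 2#. Of the 9 tested, 2 were higher and 5 lower. Among these 9, 2 passed the filter through the knockout libraries alone and 1 through WT alone, and those had to differ. Epithelial markers summed to 1264 to 1273 CPM for WT and 410 to 480 for knockout, with 1 of 10 higher and 9 lower. Through WT alone, 4 of these 10 passed the filter and likewise had to differ. The part of these shifts in the NF-kappaB results was not tested, and in bulk RNA a change in the number of cells of a type and a change of RNA per cell cannot be told apart.

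Of the 10 genes, 9 were higher in the knockout libraries, each by more than 2-fold (at least 1 on the log2 scale), and REL was lower. This held for both knockout sets against WT. With library totals in place of TMM the directions and calls were the same, but NFKBIZ (0.92), TNFAIP2 (0.79) and NFKBIA (0.50) rose by less than 1 on the log2 scale. The median log2 fold change of the 10 was 1.91 for the mean of both sets, where the median over all 19660 genes tested was -0.13. Calls at an adjusted p below 0.05 (edgeR quasi-likelihood, Benjamini-Hochberg over all genes tested) were common: 77.3% of tested genes were called, 35.8% as higher and 41.4% as lower, and 23.3% were called at least 2-fold higher. For KO 1# alone against WT it was 73.6% (35.0% higher, 38.7% lower, 23.1% at least 2-fold higher), and for KO 2# alone 73.7% (34.6%, 39.1% and 22.9%). That a gene of this group was called therefore says little by itself, and its size of change and level carry the description. All 10 genes passed the low-count filter, BIRC3 through the knockout libraries alone. The filter thus favoured a rise of BIRC3, and its place among the 9 adds no separate support. In all 10, the 4 knockout libraries lay wholly above or wholly below the 2 WT libraries, as 80.4% of tested genes did (37.2% above, 43.3% below).

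**Figure D1:**
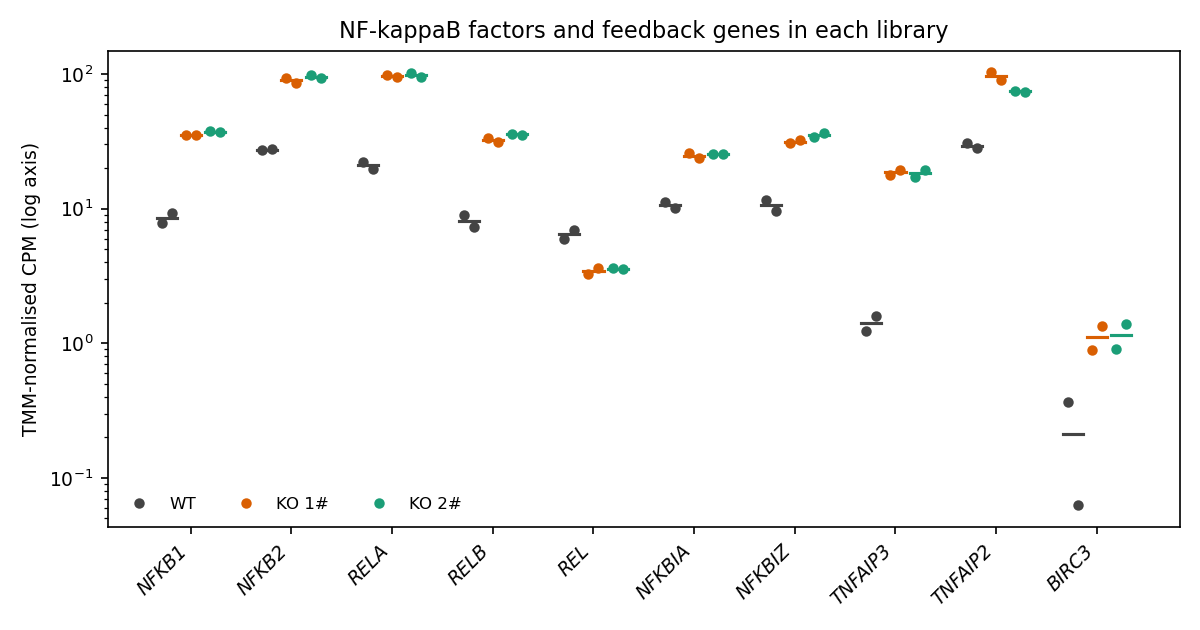
Level of each gene in each library, as TMM-normalised CPM on a log axis; points are libraries and bars the mean of the 2 libraries of a group. All genes but REL lie higher in KO 1# and KO 2# than in WT, TNFAIP2 lies lower in KO 2# than in KO 1#, and the WT libraries of BIRC3 lie farthest apart.

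Positions of the genes are those of GENCODE 29 on GRCh38. RELA (ENSG00000173039, chr11:65653596-65663094, minus strand), the main activating subunit of the canonical pathway, had the largest fitted rise among the subunits, a ranking that was not tested. Its CPM were 22.3 and 19.8 in the WT libraries, 99.0 and 95.9 in those of KO 1# and 101 and 94.6 in those of KO 2#. Every knockout library lay far above both WT libraries, and the knockout sets overlapped. The log2 fold change between genotypes was 2.22 (SE 0.0801, 95% interval 2.05 to 2.38, adjusted p = 2.51e-14), a 4.64-fold difference, and 11.8% of all tested genes rose more.

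NFKB1 (ENSG00000109320, chr4:102501329-102617302, plus strand) encodes the precursor of the usual partner of RELA, and it moved from a lower level. Its CPM were 7.81 and 9.35 in the WT libraries, 35.2 and 35.5 in those of KO 1# and 37.7 and 36.8 in those of KO 2#. The WT libraries were the least alike, and the knockout libraries spanned a narrow range. This was a rise of 2.08 on the log2 scale (SE 0.106, 95% interval 1.86 to 2.31, adjusted p = 3.45e-12).

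NFKB2 and RELB form the dimer of the non-canonical branch, which LTBR and related receptors drive through the kinase MAP3K14. NFKB2 (ENSG00000077150, chr10:102394110-102402529, plus strand) stood at 27.1 and 27.8 CPM in the WT libraries, 93.7 and 86.1 in those of KO 1# and 98.3 and 93.3 in those of KO 2#, a rise of 1.75 on the log2 scale (SE 0.0749, adjusted p = 2.63e-13). RELB (ENSG00000104856, chr19:45001430-45038198, plus strand) stood at 8.90 and 7.37 CPM in the WT libraries, 33.2 and 31.3 in those of KO 1# and 35.7 and 35.5 in those of KO 2#, a rise of 2.06 on that scale (SE 0.109, adjusted p = 6.74e-12). Both genes were thus higher in all 4 knockout libraries, with groups that did not overlap.

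REL (ENSG00000162924, chr2:60881521-60931610, plus strand), the subunit best known from lymphocytes, was the exception. Its CPM were 5.92 and 6.95 in the WT libraries, 3.28 and 3.63 in those of KO 1# and 3.62 and 3.54 in those of KO 2#, from raw counts of 310 and 334, 103 and 120, and 100 and 105. It was lower in 4 of 4 knockout libraries, with little spread among them. The log2 fold change was -0.87 (SE 0.185, 95% interval -1.26 to -0.48, adjusted p = 0.000358), and it was -0.90 in KO 1# and -0.85 in KO 2#. Of the 13170 exon bases of REL, 5702 are shared on the same strand with the gene AC010733.2, which had 0 counts in every library. Reads there may be counted to neither gene, so the level of REL is uncertain, and whether this touches the groups alike was not tested.

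**Figure D2:**
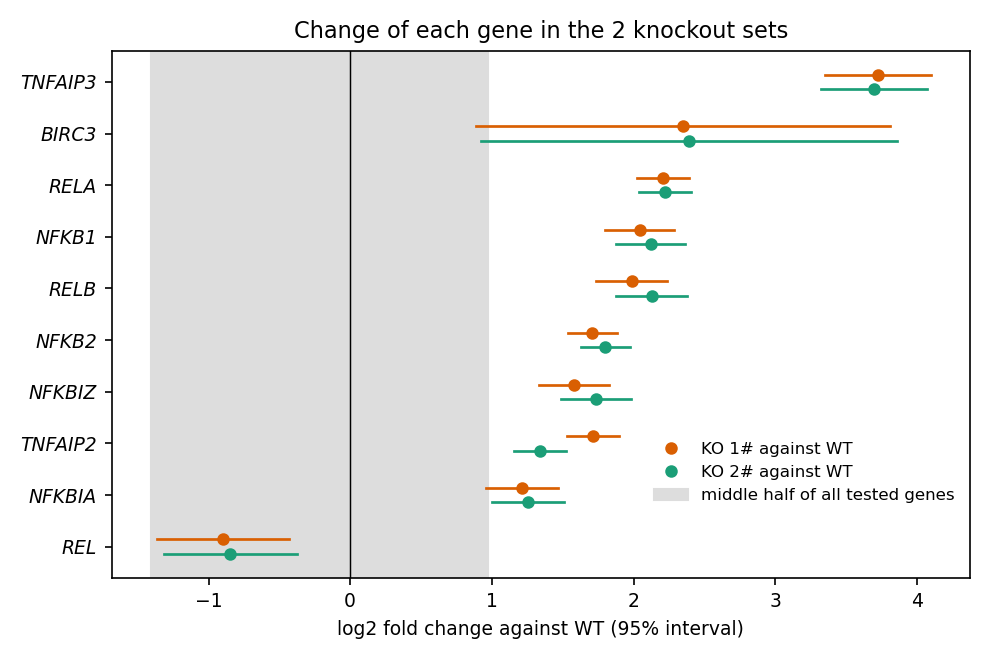
Log2 fold change of each gene in KO 1# and in KO 2# against WT, with 95% intervals; the grey band spans the lower to the upper quartile of all tested genes for the mean of both sets, -1.41 to 0.98. The points of the 9 genes that rose lie above the band, TNFAIP3 farthest right, and those of REL lie within it; the interval of BIRC3 is the widest.

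Among the inhibitors and feedback genes, TNFAIP3 (ENSG00000118503, chr6:137867188-137883312, plus strand) had the largest fitted rise, a ranking that was not tested. It encodes a ubiquitin-editing enzyme that switches off signalling upstream of IKK. TNFAIP3 had 1.24 and 1.58 CPM in the WT libraries, 17.8 and 19.5 in those of KO 1# and 17.1 and 19.4 in those of KO 2#, from 65 and 76 raw counts in WT and 473 to 643 in the knockout libraries. The knockout sets overlapped each other and lay far above WT. The log2 fold change was 3.71 (SE 0.167, 95% interval 3.36 to 4.06, adjusted p = 5.8e-13), a 13.1-fold difference that 6.05% of all tested genes exceeded. An antisense gene, AL357060.1, shares 95 exon bases with TNFAIP3 but had 13 to 47 counts, and without a known strand setting reads of both cannot be told apart.

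NFKBIA (ENSG00000100906, chr14:35401511-35404749, minus strand), which encodes the main cytoplasmic inhibitor and is itself switched on by NF-kappaB, had the smallest fitted rise of the 9, a ranking that was not tested. Its CPM were 11.3 and 10.1 in the WT libraries, 25.7 and 23.8 in those of KO 1# and 25.4 and 25.6 in those of KO 2#. The libraries of each genotype were close and the groups did not overlap. On the log2 scale it rose by 1.23 (SE 0.107, 95% interval 1.01 to 1.46, adjusted p = 7.36e-09). NFKBIZ (ENSG00000144802, chr3:101827991-101861022, plus strand) encodes a nuclear relative that binds NF-kappaB on DNA and tunes a subset of its targets. It had 11.5 and 9.60 CPM in the WT libraries, 30.8 and 32.3 in those of KO 1# and 34.0 and 36.4 in those of KO 2#. Its log2 fold change of 1.66 (SE 0.106, adjusted p = 1.06e-10) was larger than that of NFKBIA in both sets (1.58 against 1.21 in KO 1#, 1.74 against 1.26 in KO 2#); this difference between genes was not tested.

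TNFAIP2 (ENSG00000185215, chr14:103123442-103137439, plus strand), a TNF-induced gene whose product shapes membrane protrusions, was among the most abundant of the group in every library. Its CPM were 30.5 and 28.4 in the WT libraries, 103 and 90.5 in those of KO 1# and 75.1 and 73.7 in those of KO 2#. KO 2# lay between WT and KO 1#, with no overlap among the 3 groups. Against WT it rose by 1.53 on the log2 scale (SE 0.0786, adjusted p = 4.29e-12) for the mean of both sets, 1.72 in KO 1# and 1.34 in KO 2#.

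BIRC3 (ENSG00000023445, chr11:102317450-102339403, plus strand) encodes a ubiquitin ligase that works with TRAF2 at TNF receptors, and it was barely detected. Raw counts were 19 and 3 in the WT libraries, 28 and 44 in those of KO 1# and 25 and 41 in those of KO 2#, or 0.363 and 0.0624 CPM for WT and 0.890 to 1.38 CPM for knockout. The groups did not overlap, but the WT libraries differed from each other by a larger factor than the knockout libraries did. The fitted log2 fold change was 2.37 (SE 0.636, 95% interval 1.03 to 3.71, adjusted p = 0.00264). It was 1.62 with an adjusted p of 0.0507 without WT replicate 2, and 4.10 without WT replicate 1, so a single library decides the call and its size.

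Levels of different genes were compared per kilobase of merged exon. Such lengths take in every annotated exon of a gene, so the order between genes depends on them. NFKB2 led in both genotypes: 6.13 ± 0.114 CPM per kilobase (SD, n = 2) for WT and 20.7 ± 1.13 (SD, n = 4) for knockout. In WT the order of mean levels below NFKB2 was TNFAIP2 at 5.85, NFKBIA at 4.50, RELA at 3.85, RELB at 2.68, NFKBIZ at 1.79, NFKB1 at 1.37, REL at 0.489, TNFAIP3 at 0.280 and BIRC3 at 0.0283. Only NFKB2 and TNFAIP2 overlapped among neighbours there. In the knockout libraries the order was RELA at 17.9, TNFAIP2 at 17.0, RELB at 11.2, NFKBIA at 10.6, NFKB1 at 5.80, NFKBIZ at 5.65, TNFAIP3 at 3.65, REL at 0.267 and BIRC3 at 0.150. RELA overlapped TNFAIP2, RELB overlapped NFKBIA, and NFKB1 overlapped NFKBIZ. RELA and RELB thus stood below NFKBIA in both WT libraries and above it in all 4 knockout libraries, and TNFAIP3 moved from below REL to above it.

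The makeup of the 5 subunit transcripts does not depend on the scaling between libraries. REL made up 3.37% ± 0.461 (SD, n = 2) of their summed level per kilobase for WT, and 0.479% ± 0.0313 (SD, n = 4) for knockout. RELA went from 26.5% ± 1.65 to 32.1% ± 0.936 and NFKB2 from 42.2% ± 1.79 to 37.1% ± 0.586, without overlap of the groups. NFKB1 (9.46% ± 1.42 and 10.4% ± 0.266) and RELB (18.4% ± 2.02 and 20.02% ± 0.647) overlapped between genotypes. Leaving out the exon bases of REL shared with its neighbour (an alternative chosen after seeing the data) raised its share to 5.80% ± 0.773 in WT and 0.841% ± 0.0548 in the knockout libraries, with the same direction. No test of these shares was made. A two-sided exact rank-sum test of 2 against 4 libraries cannot go below p = 0.133.

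**Figure D3:**
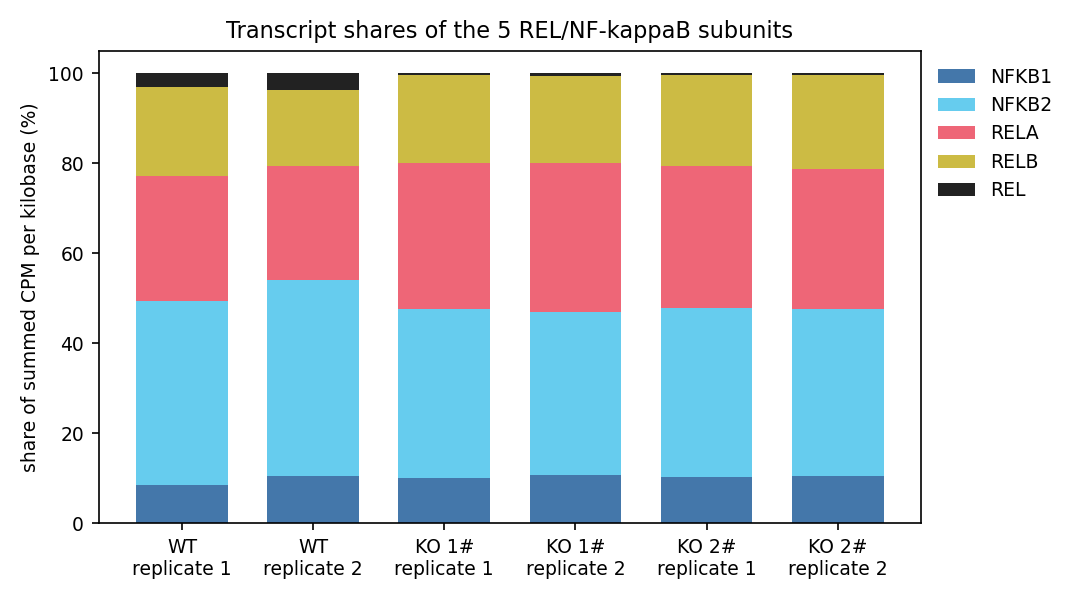
Share of each subunit in the summed CPM per kilobase of the 5 subunit genes, 1 stacked bar per library. REL, the dark top segment, is 3.05% and 3.70% of the bar in WT and between 0.445% and 0.520% in the 4 knockout libraries.

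Ratios between members, equally free of scaling, moved in both directions. These ratios are of CPM per kilobase of merged exon and are no counts of transcripts per transcript. NFKBIA per RELA was 1.16 and 1.17 in WT and 0.571 to 0.624 in the knockout libraries: the inhibitor rose less than the subunit it binds. TNFAIP3 per RELA went the other way, from 0.0602 and 0.0866 in WT to 0.183 to 0.222 in the knockout libraries. NFKBIZ per RELA was 0.464 ± 0.0200 (SD, n = 2) for WT and 0.316 ± 0.0287 (SD, n = 4) for knockout. The 2 precursors also shifted against each other, NFKB1 per NFKB2 being 0.223 ± 0.0241 in WT and 0.281 ± 0.0113 in the knockout libraries.

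Between the knockout sets, TNFAIP2 was the 1 member called, lower in KO 2# than in KO 1# (log2 fold change -0.38, SE 0.0841, 95% interval -0.56 to -0.20, adjusted p = 0.0153). In this comparison 3.86% of all tested genes were called, 2.28% as lower. The libraries of the 2 sets did not overlap for NFKB1, RELB, NFKBIZ and TNFAIP2, 4 of 10 genes, as for 42.8% of all tested genes. The call was lost without KO 1# replicate 1 (-0.28, adjusted p = 0.0639), without KO 2# replicate 1 (-0.39, adjusted p = 0.0919) or without KO 2# replicate 2 (-0.36, adjusted p = 0.16). For the other 9 genes the adjusted p was at least 0.544, which does not show that the sets are alike. The 95% interval of the difference ran from -0.16 to 0.18 for RELA, -0.07 to 0.26 for NFKB2, -0.15 to 0.31 for NFKB1, -0.09 to 0.38 for RELB, -0.33 to 0.28 for TNFAIP3 and -0.45 to 0.55 for REL. It was -0.20 to 0.29 for NFKBIA and -0.08 to 0.40 for NFKBIZ, and for BIRC3 it was as wide as -1.29 to 1.37.

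**Figure D4:**
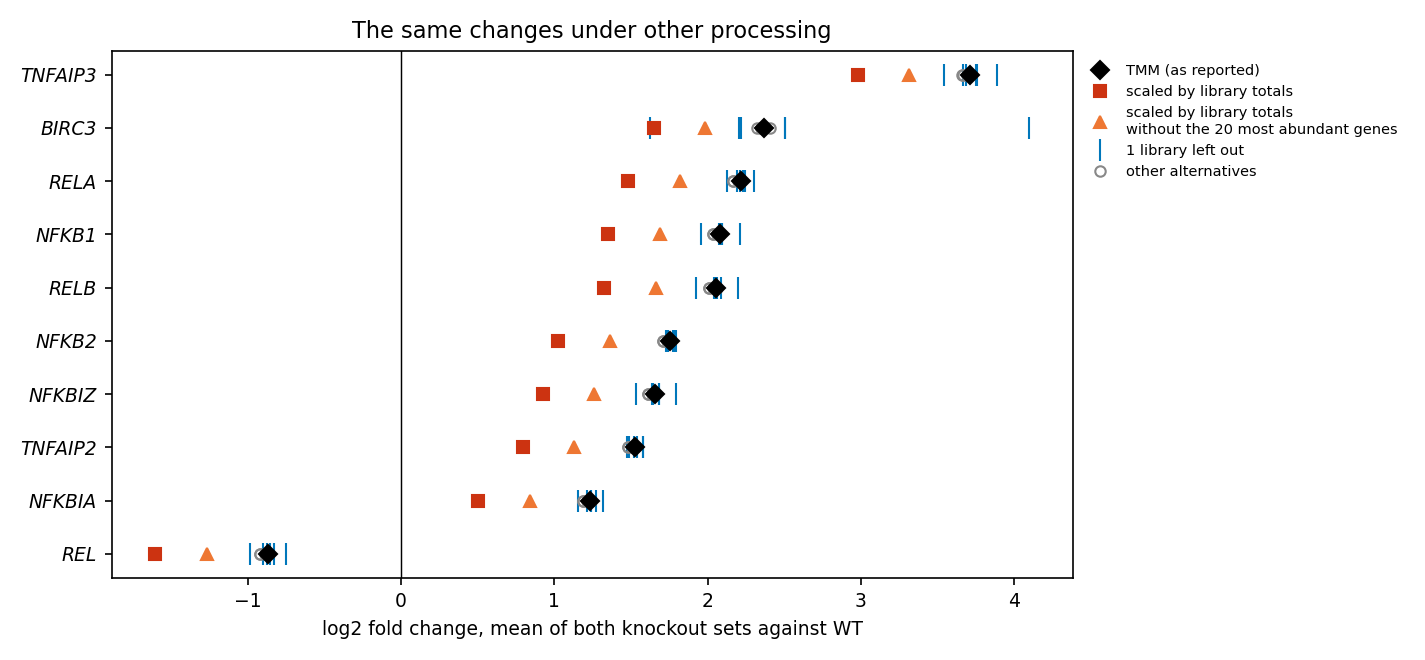
Log2 fold change of each gene, mean of both knockout sets against WT, under each processing alternative; diamonds are the values reported, squares and triangles scale by library totals, ticks leave out 1 library, and circles are the other alternatives. No gene crosses 0: NFKBIA comes nearest among those that rose, at 0.50 with library totals, and BIRC3 varies most.

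Other genes of the pathway were read from 4 lists holding 110 genes. Of all genes tested, 77.3% were called, 35.8% as higher and 41.4% as lower. With library totals 81.8% of them were called, and 26.7% of those calls were higher. Of 29 adaptors and kinases, all tested, 21 rose, 3 fell and 5 did not pass (82.8% called, median log2 fold change 0.84). TRADD, the adaptor that joins TNF receptors to the pathway, went from 0.279 ± 0.0169 CPM (SD, n = 2) in WT to 23.8 ± 2.98 (SD, n = 4), up by 6.40 on the log2 scale (adjusted p = 7.13e-15). The kinase IKBKE (2.15), the adaptor TRAF3 (2.04) and the protease MALT1 (1.99) followed. With library totals instead of TMM, 12 rose and 8 fell.

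The 3 genes of the IKK complex, which acts on the product of NFKBIA, held 2 that rose and 1 that did not pass; the genes of this paragraph, other than TRAF3, were chosen after their values were seen. CHUK rose from 21.5 ± 0.230 to 34.8 ± 1.46 CPM (log2 fold change 0.69, adjusted p = 1.27e-06), a direction that turned with library totals (-0.04, adjusted p = 0.681). IKBKB was 26.9 ± 2.02 CPM for WT and 25.3 ± 2.30 for knockout (adjusted p = 0.419), though lower with library totals (-0.82, adjusted p = 2.25e-07). IKBKG, the regulatory subunit, went from 4.45 ± 0.406 to 7.97 ± 0.979 CPM (edgeR, adjusted p = 0.000313, and adjusted p = 0.582 with library totals). In the non-canonical branch, the kinase gene MAP3K14 rose from 4.45 ± 1.11 to 15.4 ± 1.51 CPM (1.79, adjusted p = 1.56e-08), and so did its brakes TRAF3, from 21.4 ± 1.54 to 88.1 ± 3.27 CPM, and BIRC2, from 26.5 ± 2.16 to 95.2 ± 8.90 CPM. TRAF2, which joins TRAF3 to the BIRC proteins, fell from 42.1 ± 0.305 to 14.9 ± 1.40 CPM (-1.50, adjusted p = 9.3e-11).

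Of 24 receptors and ligands 18 could be tested, and 9 rose, 7 fell and 2 did not pass (median 0.43, or -0.30 with library totals). That is 88.9% called, against 77.3% of all tested genes. Genes tested through 1 genotype alone, 2 through the knockout libraries and 5 through WT, had to differ. TLR4, the receptor for bacterial lipopolysaccharide, had 0 and 4 counts in the WT libraries and reached 65.5 ± 3.43 CPM (SD, n = 4) with knockout. TNFSF10, a death ligand, had 4 and 0 counts in WT and reached 33.4 ± 4.63 CPM with knockout. The interleukin receptor gene IL1R1 rose by 5.35 and LTBR by 2.88 on the log2 scale, and the TNF receptor gene TNFRSF1A, named after its value was seen, went from 35.7 ± 0.462 to 169 ± 2.89 CPM. The 7 that fell were all low in WT, and they too were chosen after their values were seen. TNFSF11, the ligand of osteoclast formation, had 160 and 200 counts in WT and 0 to 5 in the knockout libraries, and its receptor gene TNFRSF11A had 139 and 143 counts against 0 to 6. TNFRSF13C, a receptor of B cells, fell from 3.42 ± 0.0805 to 0.305 ± 0.0677 CPM (-3.48, adjusted p = 4.87e-08) and TNFRSF1B, the second TNF receptor, from 1.92 ± 0.334 to 0.149 ± 0.128 CPM (-3.74, adjusted p = 1.68e-05). IL1A, TLR2 and TLR3 were at most 1.05 CPM in every library. TLR2 (adjusted p = 0.0291) and TLR3 (adjusted p = 0.0106) lost the call when either WT library was left out, and TLR2 also without KO 1# replicate 2 or KO 2# replicate 1. The ligand TNF itself held 0 and 1 counts in WT and 3 to 6 in the knockout libraries.

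Of 19 inhibitors besides the members, 15 rose, 1 fell and 3 did not pass (median 1.24). That is 84.2% called, against 77.3% of all tested genes. The low-count filter was passed by 1 of the 19 through the knockout libraries alone, so that gene had to differ. With library totals 9 rose and 6 fell. The LIM protein gene PDLIM2 rose by 3.43, UACA by 3.09, the deubiquitinase gene CYLD by 2.53 and NLRC5 by 2.38 on the log2 scale. The other cytoplasmic inhibitors, chosen after their values were seen, had smaller fitted changes than NFKBIA, a difference that was not tested. NFKBIE went from 9.87 ± 0.0356 to 16.5 ± 2.04 CPM (log2 fold change 0.74, adjusted p = 5.1e-05, edgeR). With library totals NFKBIE was not called (adjusted p = 0.968, edgeR). NFKBIB went from 18.4 ± 1.38 to 22.5 ± 1.51 CPM (log2 fold change 0.29, adjusted p = 0.0132, edgeR), and its log2 fold change was -0.44 with library totals. NFKBID, a nuclear relative of NFKBIZ, was the 1 that fell, from 5.89 ± 0.150 to 4.35 ± 0.919 CPM (-0.45, adjusted p = 0.0409), and it lost the call without WT replicate 1 (0.177), WT replicate 2 (0.124) or KO 2# replicate 2 (0.142).

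Of 38 known target genes 32 could be tested, 6 of them through the knockout libraries alone and 1 through WT alone. Those tested through 1 genotype alone had to differ. Of the 32, 24 rose, 6 fell and 2 did not pass (median 2.60). That is 93.8% called, against 77.3% of all tested genes. With library totals, 20 rose and 6 fell. MMP1, a collagenase gene, had 0 counts in both WT libraries and was at least 230-fold higher in the knockout libraries, against 3 counts per library; VCAM1, an adhesion molecule gene also at 0 in WT, was at least 91.8-fold higher in KO 1# and at least 36.1-fold higher in KO 2#. The antiapoptotic CFLAR (2.75), the stress genes GADD45B (3.87) and IER3 (3.78) and the adhesion molecule gene ICAM1 (1.63) rose too on the log2 scale; these 4 were chosen after their values were seen.

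Not every target moved that way. CXCL5, a neutrophil chemokine, had 534 and 545 counts in the WT libraries, 0 in both of KO 1#, and 44 and 94 in those of KO 2#, and was at least 116-fold higher in WT than in KO 1#. The complement gene C3 fell from 23.0 ± 0.789 to 1.55 ± 0.276 CPM (-3.90, adjusted p = 3.46e-14) and the mitochondrial dismutase gene SOD2 from 48.2 ± 3.22 to 29.3 ± 2.03 CPM (-0.72, adjusted p = 3.5e-07). IL6 was near the detection limit, with 0.114 ± 0.134 CPM for WT and 0.358 ± 0.178 for knockout (adjusted p = 0.116). C3, SOD2 and IL6 were chosen after their values were seen.

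**Figure D5:**
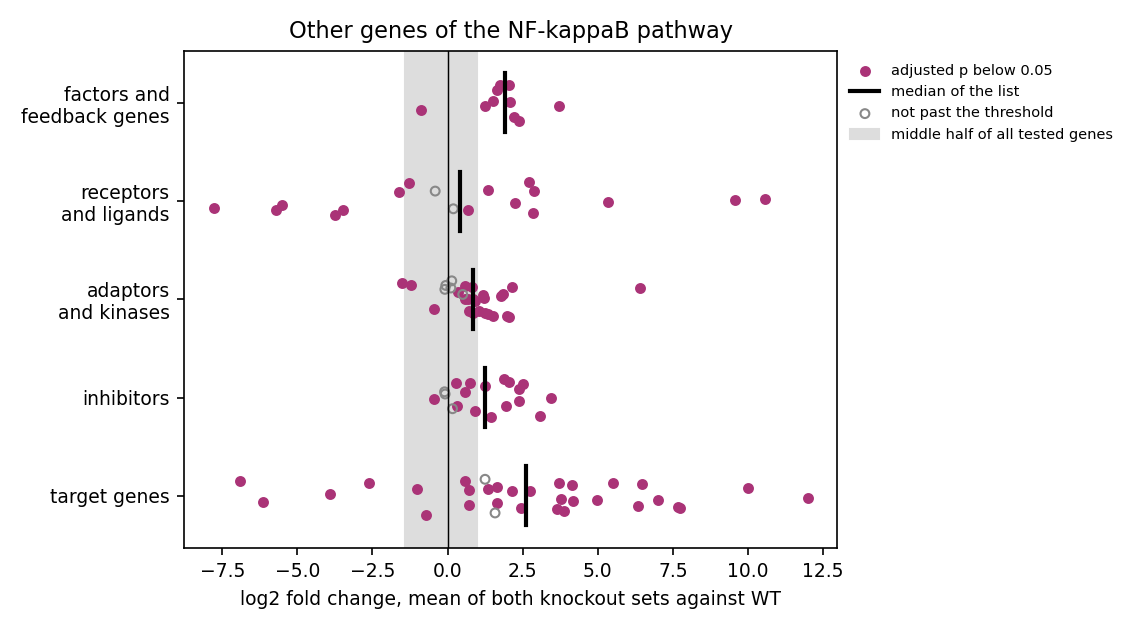
Log2 fold change, mean of both knockout sets against WT, of every tested gene of the NF-kappaB factors and feedback genes and of the 4 pathway lists; filled points passed the threshold, open points did not, bars are list medians and the grey band spans the quartiles of all tested genes. Target genes and inhibitors lie mostly to the right, with medians of 2.60 and 1.24, while receptors and ligands lie on both sides.

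Between KO 2# and KO 1#, 0 of 18 receptors and ligands, 1 of 29 adaptors and kinases and 2 of 19 inhibitors were called, all 3 higher in KO 2#. Of the target genes, 9 of 32 (28.1%) were called where 3.86% of all tested genes were, 6 higher and 3 lower in KO 2#. Of the 5 subunit genes 0 were called (edgeR; 0 at an unadjusted p under 0.05 and 0 by DESeq2); of the 18 receptors and ligands, 4 were under that unadjusted p and 0 were called by DESeq2. The kappaB consensus lay in the windows of 15 of 25 target genes (60%), 7 of 16 inhibitors (43.8%), 4 of 19 receptors and ligands (21.1%) and 3 of 25 adaptors and kinases (12%) with a window. The targets were listed for being known NF-kappaB targets, so this order is a description as well.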

How the data were processed

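Gene-level RNA-seq of 6 libraries (WT, KO 1# and KO 2#, 2 each) was used. The authors deposited raw gene counts for 58395 identifiers. The submitters' processing notes list DESeq 1.18.1, HTSeq 0.6.0, HISAT2 2.0.4, SAMtools 1.3.1 and GRCh38; which step each served, which annotation was counted and with what strand setting is not given in the sources used here. Per the labels' protocols, Trizol RNA went into a TruSeq RNA kit. Positions and merged exon lengths came from GENCODE 29, which held 58275 of the identifiers, and start windows from RefSeq on GRCh38.p14; neither need be the annotation used for counting. RELB had no window.

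Counts were scaled by TMM and fitted with edgeR 4.0.16 (R 4.3.3) in 1 quasi-likelihood model with 3 groups and no covariate, after filterByExpr with a minimum count of 10 (19660 genes, 3 residual degrees of freedom, biological coefficient of variation 0.0829). WT was compared with the mean of both knockout sets and with each of them, and the sets with each other (KO 2# minus KO 1#). Tests were two-sided, adjusted by Benjamini-Hochberg over all genes and called below 0.05. CPM use the effective (TMM-scaled) library size. Standard errors come from the F statistic. Folds against groups at 0 counts are lower bounds from 3 counts per library, covering counting error only. Alternatives were other scalings, DESeq2 1.42.0, other filters, a replicate block and leaving out each library. Replicates of a group differed beyond sampling noise.

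The genes, pathway lists and marker lists were chosen with earlier results of these data known, so they support nothing independently. All 10 members, BRPF1 and, per pathway list, up to 4 genes with the largest fold change among those called, with an average log2 CPM of at least 1 and the same sign in both knockout sets, were to be named, with the most abundant markers and those at 0; genes outside this rule are said to be chosen after their values were seen. A target gene that met the rule is not reported here by name or value, though it counts in the list totals.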

Additional observations from a re-analysis of the deposited data

Results flagged for a closer look

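Differences between the knockout sets, KO 2# against KO 1#, passed the edgeR quasi-likelihood test (adjusted over all genes tested) for 1 of the 10 members and for 12 other pathway genes, where 3.86% of tested genes passed. CCL2, IL11, LIF, IER3, CSF1, MMP9, BCL10 and ZC3H12A were chosen after their values were seen. Each value here is a log2 fold change. For each gene the libraries of KO 2# and KO 1# did not overlap, as for 42.8% of all tested genes. The genes were picked by this same comparison, so the lack of overlap adds no separate support. TNFAIP2 was lower in KO 2# (-0.38, adjusted p = 0.0153).

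Among the target genes, 6 were higher in KO 2#, of which 5 are given here. CXCL5, at 0 counts in KO 1#, was at least 25.6-fold higher in KO 2#; its fitted value of 9.47 (adjusted p = 9.05e-06) depends on the prior count and is no bound. The chemokine gene CCL2 differed by 0.84 (adjusted p = 0.00296), the cytokine genes IL11 by 0.60 (adjusted p = 0.000858) and LIF by 0.34 (adjusted p = 0.0402), and IER3 by 0.36 (adjusted p = 0.00113).

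Target genes lower in KO 2# were the protease gene MMP9 (-1.38, adjusted p = 1.34e-06), VCAM1 (-1.35, adjusted p = 0.0346) and the growth factor gene CSF1 (-0.51, adjusted p = 0.00606). MMP9 had 47.4 ± 5.22 CPM (SD, n = 2) in KO 1#, 18.2 ± 0.848 in KO 2# and 19.6 ± 2.22 in WT and its log2 fold change against WT for the mean of both sets was 0.58. Among inhibitors UACA (1.14, adjusted p = 5.36e-07) and the RNase gene ZC3H12A (0.38, adjusted p = 0.0483) were higher in KO 2#, as was the adaptor gene BCL10 (0.46, adjusted p = 0.0396).

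NFKBID had a library far from the others of its genotype: KO 2# replicate 1 stood at 5.72 CPM, beside 5.998 and 5.79 CPM in the WT libraries, while the other 3 knockout libraries held 3.78 to 3.94 CPM. In 3 genes near 0 counts a knockout library also stood apart: TNFSF11 at 0.159 CPM in KO 1# replicate 1, TNFRSF11A at 0.217 CPM in KO 2# replicate 1 and IL1A at 0.0303 CPM in KO 1# replicate 2, from 5, 6 and 1 counts. For TNFSF11 and IL1A the other knockout libraries held 0 counts, so any count at all would have met the criterion. Only the 4 knockout libraries of the 61 genes named or singled out were examined; by Dixon's criterion chance sets apart about 1 group in 20.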

How the results depend on the processing

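The 10 members kept their direction and, BIRC3 without WT replicate 2 apart, their call against WT under every alternative run: 129 of 130 values for the mean of both sets, with 1.60 (adjusted p = 0.0715) for BIRC3 in KO 1# and 1.65 (adjusted p = 0.0653) in KO 2#. TMM places the median of all genes at -0.13 and library totals at -0.86 (-0.53 without the 20 most abundant genes), and the share of calls that were higher went from 46.4% to 26.7% (34.9%). With library totals RELA moved to 1.48, NFKB1 to 1.35, RELB to 1.33, NFKB2 to 1.02, NFKBIZ to 0.92, TNFAIP2 to 0.79, NFKBIA to 0.50 and TNFAIP3 to 2.98, while REL moved to -1.60.

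Library totals gave 12 adaptors and kinases higher and 8 lower, 9 inhibitors higher and 6 lower, and turned the median of receptors and ligands to -0.30; without the 20 most abundant genes 7 adaptors and kinases and 4 inhibitors were lower. They also reversed BRPF1 (-0.66; -0.32 without the 20 most abundant genes; from -0.0644 to 0.23 when 1 library was left out), CHUK (-0.0406), NFKBIB (-0.44; -0.10 without the 20 most abundant genes) and MMP9 (-0.15). DESeq2 called 0 inhibitors lower (NFKBID -0.50, adjusted p = 0.0597), and leaving out 1 library gave 0 to 1 inhibitors lower, where the main value is 1.

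For KO 2# against KO 1#, leaving out 1 library gave 0 to 1 members lower. Signs near 0 turned with library totals for RELA (-0.0426), REL (-0.00132), NFKBIA (-0.00670) and BIRC3 (-0.0105), and without the 20 most abundant genes for RELA (-0.0253). With 1 knockout library left out, the difference ran from -0.0429 to 0.0584 for RELA, -0.0225 to 0.14 for REL, -0.00153 to 0.10 for NFKBIA, -0.12 to 0.0616 for TNFAIP3 and -0.30 to 0.37 for BIRC3. VCAM1 lost its call without KO 1# replicate 2 (-1.05, adjusted p = 0.187) or KO 2# replicate 2 (-1.12, adjusted p = 0.216). CSF1 lost it without KO 2# replicate 2 (-0.44, adjusted p = 0.114), and LIF, BCL10 and ZC3H12A lost it with library totals and when any of several single libraries was left out. The cause was not tested in any of these. Leaving out 1 library leaves a group with a lone library, which is then assumed to vary like the other groups.

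Same-numbered replicates deviated together only weakly over all tested genes (correlations 0.0336, 0.011 and 0.0269). Whether the numbers pair the libraries is not settled by this, since noise in low-count genes can mask a shared deviation. With the number as a replicate block, 9 members were higher and 1 lower against WT, as without it; 0 were higher and 1 lower in KO 2# against KO 1#, where calls over all genes went from 759 to 1633. Without the low-count filter, 38795 genes entered and the share called fell from 77.3% to 41.3% because more genes were tested. Fitting only the groups compared is the same model for the mean of both sets. Low counts limit BIRC3.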
